A study of Mus musculus with 12 samples.

Results

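The 5 milk casein genes of the mouse, Csn1s1, Csn2, Csn1s2a, Csn1s2b and Csn3, were followed as self-antigens of the thymus. They were taken by symbol from the 25867 genes with a symbol in the count table, and all 5 were listed there. Of these, 4 had enough counts to be tested, and Csn1s2b did not. RNA was sequenced from sorted thymic epithelial cells (TECs) of 12 fetal thymic organ cultures of C57BL/6 mice, with 3 biological replicates in each of 4 groups. The Kat7 knockout cultures came from RosaCre-ERT2 Kat7fl/fl mice, in which a Cre recombinase that acts after tamoxifen removes the floxed gene, and they were given tamoxifen. Their controls carried a genotype named only as control and were given tamoxifen too. The WM-3835 cultures were wild type and were treated with this inhibitor of the histone acetyltransferase KAT7 (also called HBO1), and the DMSO cultures were wild type and were given the solvent. The sample titles spell the inhibitor WM-3825, and its dose and duration are not stated in the labels. The cultures of all 4 groups started from thymic lobes of E15.5 embryos. The lobes spent 4 to 5 days in 1.35 mM 2'-deoxyguanosine, which removes thymocytes, and then 3 days with agonist anti-RANK at 10 µg/mL, so every group, controls included, was measured after this stimulus. The Cre is placed at a locus active in most tissues, so Kat7 loss was not limited by cell type to TECs.

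Caseins are the main proteins of milk. In the mammary gland Csn1s1, Csn2, Csn1s2a and Csn1s2b encode calcium-sensitive caseins, which bind calcium phosphate through phosphorylated serines, and Csn3 encodes kappa-casein, which coats and stabilises the casein micelle. Their transcription in the gland follows prolactin, which acts through JAK2 and STAT5, together with glucocorticoid signals. In the thymus, medullary TECs transcribe genes of other tissues at low level and in a small share of cells at a time, many of them under the regulator AIRE, so that T cells reactive to those proteins can be removed or diverted. Csn2 is among the antigens commonly used to follow AIRE-dependent transcription in mouse TECs.

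The genes lie within 266.3 kb of chromosome 5 on mm10 (GRCm38), from 87666208 to 87932550, in the order Csn1s1, Csn2, Csn1s2a, Csn1s2b, Csn3. Csn2 is on the minus strand and the other 4 are on the plus strand. The promoters are shown because the members differed in counts by orders of magnitude although they share a cluster. RefSeq promoter windows on GRCm38.p6, from 250 bases before to 50 bases after the start, were matched for 3 of the 5 genes. Capitals mark matches of TTCNNNGAA, the palindromic core bound by STAT factors, which reads the same on both strands.
Csn1s1, chr5:87665958-87666257, plus strand: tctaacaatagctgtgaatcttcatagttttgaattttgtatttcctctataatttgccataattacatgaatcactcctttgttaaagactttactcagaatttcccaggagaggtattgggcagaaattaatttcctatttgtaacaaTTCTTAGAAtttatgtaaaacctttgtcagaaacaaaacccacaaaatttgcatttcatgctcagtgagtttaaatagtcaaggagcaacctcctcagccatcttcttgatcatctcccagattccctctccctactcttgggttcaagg
Csn2, chr5:87699376-87699675, minus strand: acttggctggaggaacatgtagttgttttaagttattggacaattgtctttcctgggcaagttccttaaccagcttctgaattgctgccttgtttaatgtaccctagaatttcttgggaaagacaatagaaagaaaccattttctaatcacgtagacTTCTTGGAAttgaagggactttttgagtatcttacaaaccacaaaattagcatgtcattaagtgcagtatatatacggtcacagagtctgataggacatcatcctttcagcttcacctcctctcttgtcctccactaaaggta
Csn1s2a, chr5:87774200-87774499, plus strand: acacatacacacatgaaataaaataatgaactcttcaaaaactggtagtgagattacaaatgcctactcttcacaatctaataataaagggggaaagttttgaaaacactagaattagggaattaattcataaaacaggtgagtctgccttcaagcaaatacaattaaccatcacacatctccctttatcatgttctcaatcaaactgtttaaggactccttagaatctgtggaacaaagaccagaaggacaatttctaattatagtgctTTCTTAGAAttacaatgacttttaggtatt
The match ran from -100 to -92 in Csn1s1, from -93 to -85 in Csn2 and from 21 to 29 in Csn1s2a, counted from the start. The same letters occurred in 8.3% of 32851 RefSeq promoters of this length. The Csn2 window also held the overlapping letters TATATA from -26 to -21 and from -24 to -19, which 5.67% of promoters hold and which neither of the other 2 windows held. The 3 windows had 0, 2 and 0 CpG pairs in Csn1s1, Csn2 and Csn1s2a, against a median of 7 over all promoters. Their GC content was 35.3%, 38.7% and 32.3% in the same order, against a median of 52.7%. A match of letters is a description and not a measured binding site.

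The coding starts show which members resemble each other and whether short reads could pass between them. They are the first 45 coding bases of GENCODE M21 transcripts on GRCm38, on chromosome 5, with capitals in the other 4 genes where the base equals that of Csn2.
Csn2: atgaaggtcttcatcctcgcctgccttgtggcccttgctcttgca
Csn1s1: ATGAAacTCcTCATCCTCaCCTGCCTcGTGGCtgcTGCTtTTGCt
Csn1s2a: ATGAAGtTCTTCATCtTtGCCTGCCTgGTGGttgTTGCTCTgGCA
Csn1s2b: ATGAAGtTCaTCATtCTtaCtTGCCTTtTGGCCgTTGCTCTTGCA
Csn3: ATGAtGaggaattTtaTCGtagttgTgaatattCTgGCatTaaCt
Over these bases Csn1s1 equalled Csn2 at 35 positions, Csn1s2a and Csn1s2b at 37 each, and Csn3 at 16. The longest run of identical bases between any 2 casein genes was 12 to 15 bases, except 31 between Csn1s1 and Csn3, so none was as long as the 75-base reads.

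Libraries held 26656847 to 52368012 counts. The targeted gene Kat7 fell to 22, 22 and 25 counts in the knockout libraries, against 3762, 3072 and 2730 in the control libraries (log2 change -6.74 ± 0.13 SE, edgeR adjusted p = 2.67e-18). Kat7 did not pass the test between WM-3835 and DMSO cultures (log2 change 0.19 ± 0.09, adjusted p = 0.151). The TEC label held against its markers: Epcam, an epithelial adhesion molecule, stood at 515 to 801 CPM and Foxn1, the transcription factor that defines TECs, at 164 to 253 CPM in all 12 libraries. The T cell gene Cd3e stood at 0.313 CPM or less. A list of 10 thymocyte markers that includes it summed to 8.82 to 16.5 CPM per library, with Lck at 6.71 to 14.2 CPM and Cd4 at 0.779 to 4.01 CPM. Xist, the RNA of the inactive X chromosome, divided the libraries: it stood at 1709, 1191 and 4.94 CPM in the knockout libraries, 2.34 to 3.17 CPM in the control libraries, and 846 to 2118 CPM in the WM-3835 and DMSO libraries. Some results are also given without knockout libraries 1 and 2, which hold Xist, a fit that rests on knockout library 3 alone.

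Csn2, which encodes beta-casein, was the one casein with a high level in these TECs, and it fell in the knockout and in the inhibitor cultures. It had 3321, 2094 and 2243 counts in the knockout libraries, against 9362, 6991 and 7265 counts in the control libraries. On the TMM-scaled CPM scale, which divides by library size, these were 91.5, 77.1 and 78.0 CPM in the knockout libraries, against 222, 174 and 202 CPM in the control libraries. Every knockout library lay below every control library, and knockout library 3, the one without Xist, lay beside library 2. Csn2 averaged 82.2 ± 8.07 CPM in knockout cultures and 199 ± 23.9 CPM in control cultures (SD, n = 3 each). The log2 change was -1.28 ± 0.11 (SE), with an edgeR quasi-likelihood adjusted p of 2.68e-07 over 18670 genes. It was the 1 casein of 4 tested that passed in this comparison, in which 14.4% of all tested genes passed, 6.34% as higher and 8.04% as lower.

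The Csn2 level was lower still in the WM-3835 cultures. Csn2 had 1485, 1766 and 1120 counts in the WM-3835 libraries, against 9533, 5425 and 7881 counts in the DMSO libraries, or 33.2, 46.1 and 38.9 CPM against 184, 203 and 185 CPM. The groups did not overlap: the lowest DMSO library stood above the highest WM-3835 library. The mean was 39.4 ± 6.43 CPM in WM-3835 cultures and 190 ± 10.9 CPM in DMSO cultures (SD, n = 3 each), with a log2 change of -2.27 ± 0.11 and an edgeR adjusted p of 7.46e-11. With Csn1s1, described further on, 2 of the 4 tested caseins were lower here, where 18.9% of all tested genes passed and 9.36% passed as lower.

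The difference between the inhibitor effect and the knockout effect was itself tested, and for Csn2 it was -1.0 ± 0.15 on the log2 scale (edgeR adjusted p = 0.00018). Csn2 was the 1 casein of 4 with a difference between the effects past the threshold, which 10.4% of all tested genes passed, 5.8% as higher and 4.56% as lower. Genotype, tamoxifen, the mode of KAT7 loss and the Xist levels all differ between the arms. Their parts in this difference cannot be told apart. Xist also divides the DMSO libraries from the control libraries. Csn2 differed little between DMSO and control cultures: the log2 change of DMSO over control was -0.07 ± 0.11 (edgeR adjusted p = 0.713), and none of the 4 tested caseins passed in that comparison, in which 24.8% of tested genes did. At an unadjusted p under 0.05 edgeR also called none of the 4 there, and DESeq2 and limma-voom called none of them. In bulk RNA from sorted cells, fewer cells that transcribe a casein and less casein RNA per cell cannot be told apart.

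**Figure D1:**
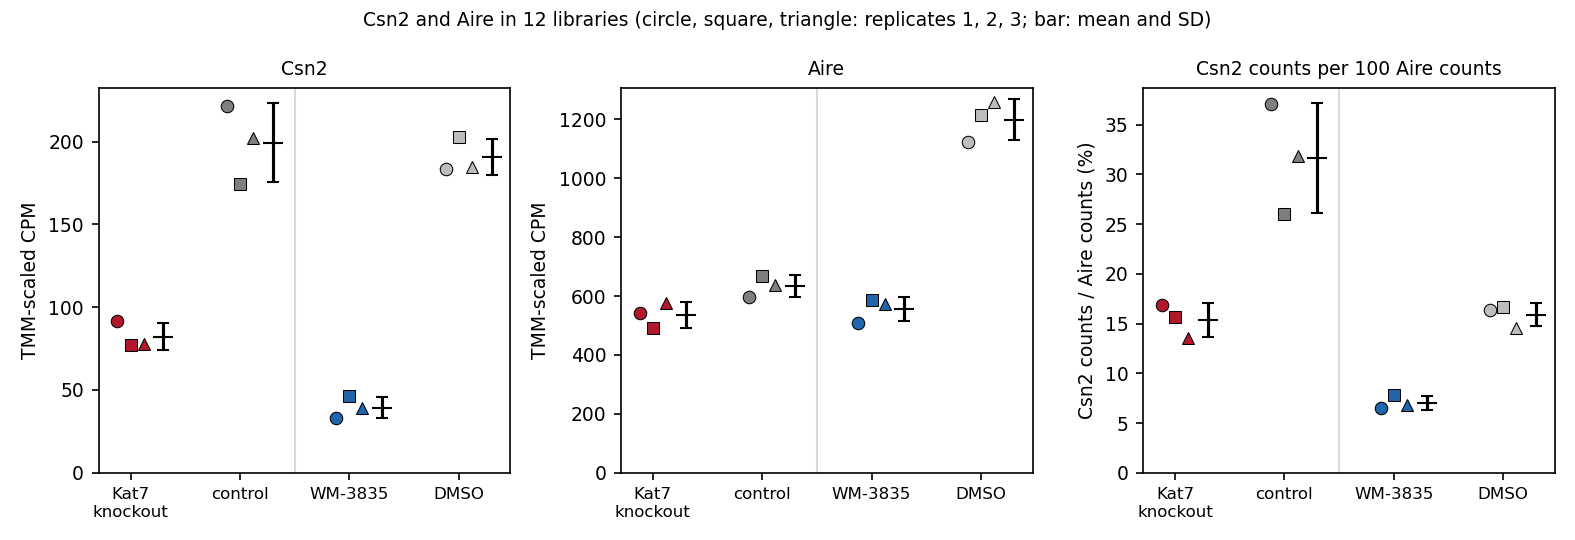
Csn2 and Aire in TMM-scaled CPM, and Csn2 counts as a percentage of Aire counts in the same library, for the Kat7 knockout, control, WM-3835 and DMSO groups; symbols are the 3 replicates and bars the mean and SD. Csn2 lies at 77.1 to 91.5 CPM in knockout libraries below 174 to 222 CPM in control libraries, and at 33.2 to 46.1 CPM in WM-3835 libraries below 184 to 203 CPM in DMSO libraries, while Aire is highest in DMSO.

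Among the 25867 genes with a symbol, ordered by counts per length within each library, Csn2 held rank 779, 974 and 964 in the knockout libraries, against rank 228, 305 and 237 in the control libraries. In the WM-3835 libraries it held rank 3194, 2129 and 2690, against rank 285, 256 and 273 in the DMSO libraries. A milk protein gene was thus within the upper 305 of these genes in every control and DMSO library. Per kilobase of transcript, its level was 73.4 CPM/kb in knockout cultures and 178 CPM/kb in control cultures, and 35.2 CPM/kb in WM-3835 cultures and 170 CPM/kb in DMSO cultures.

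Aire, which encodes the regulator of tissue-restricted antigens, did not keep a fixed proportion to Csn2. Aire averaged 536 ± 43.9 CPM in knockout cultures and 634 ± 36.2 CPM in control cultures, a log2 change of -0.24 ± 0.08 with an edgeR adjusted p of 0.045. This call was lost in 8 of 18 alternatives, and with Xist as a covariate the log2 change was -0.12 (adjusted p = 0.65). Without the 2 knockout libraries that hold Xist the log2 change was also -0.12. The adjusted p was 0.111 without knockout library 1, 0.231 without knockout library 2, 0.153 without control library 2 and 0.0839 without control library 3. In the inhibitor arm Aire averaged 556 ± 40.5 CPM in WM-3835 cultures and 1200 ± 69.9 CPM in DMSO cultures, a log2 change of -1.11 ± 0.08 (edgeR adjusted p = 8.11e-09). Aire was higher in DMSO than in control cultures, with a log2 change of 0.92 ± 0.08 (edgeR adjusted p = 3.46e-08), while Csn2 did not pass there.

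Per 100 Aire counts of the same library, Csn2 had 16.9, 15.7 and 13.5 counts in the knockout libraries, against 37.1, 26.0 and 31.8 in the control libraries. It had 6.52, 7.86 and 6.79 in the WM-3835 libraries, against 16.4, 16.7 and 14.6 in the DMSO libraries. The libraries did not overlap within either pair. The log2 ratio of Csn2 to Aire differed by -1.03 between knockout and control and by -1.17 between WM-3835 and DMSO, each with a two-sided exact permutation p of 0.1, the smallest that 3 libraries against 3 allow. The ratio also differed by -0.98 between DMSO and control cultures (exact permutation p = 0.1), so Csn2 relative to Aire was as low in DMSO libraries as in knockout libraries. Whether Aire level had a part in the Csn2 changes was not tested.

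Csn1s1, which encodes alpha-s1-casein, was a rare transcript in the same direction. It had 20, 0 and 0 counts in the knockout libraries, against 69, 30 and 91 in the control libraries. It had 0, 2 and 0 counts in the WM-3835 libraries, against 36, 21 and 19 in the DMSO libraries. The groups did not overlap in either pair, and the remaining knockout counts came from library 1. The mean was 0.184 ± 0.318 CPM in knockout cultures and 1.64 ± 0.893 CPM in control cultures, and 0.0174 ± 0.0301 CPM in WM-3835 cultures and 0.641 ± 0.176 CPM in DMSO cultures (SD, n = 3 each).

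The knockout change of Csn1s1 did not pass (log2 change -3.08 ± 1.34, edgeR adjusted p = 0.134). Without knockout library 1 it passed (adjusted p = 0.0107), both remaining knockout libraries being at 0 counts, and DESeq2 with all libraries gave an adjusted p of 0.0443. The WM-3835 change passed at a log2 change of -4.92 ± 1.6 (edgeR adjusted p = 0.0354), and this call was lost on leaving out any of DMSO libraries 1, 2 and 3 or WM-3835 libraries 1 and 3, with adjusted p of 0.0734, 0.0827, 0.0554, 0.132 and 0.119 in that order. The difference between the effects did not pass (-1.84 ± 1.90, adjusted p = 0.637). Scaled to library size, Csn1s1 counts in the WM-3835 group were 0.0286 times those in the DMSO group, with an exact 95% interval of 0.0034 to 0.107 that covers counting error only. For knockout against control the ratio was 0.135, with an interval of 0.0807 to 0.215. Both intervals lay below 1, but they pool the libraries and leave out the spread between them. All 20 knockout counts came from library 1.

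Csn1s2a, which encodes an alpha-s2-like casein, was rare in every group. It had 19, 23 and 3 counts in the knockout libraries, against 30, 18 and 0 in the control libraries. It had 0, 17 and 1 counts in the WM-3835 libraries, against 55, 20 and 21 in the DMSO libraries. The knockout and control libraries overlapped, and all WM-3835 libraries lay below all DMSO libraries. Neither comparison passed, with log2 changes of 0.34 ± 1.43 (edgeR adjusted p = 0.907) for the knockout and -2.24 ± 1.50 (adjusted p = 0.353) for WM-3835. The WM-3835 change passed under limma-voom with quality weights (-3.47, adjusted p = 0.0197). Scaled to library size, the ratio of counts in the WM-3835 group to those in the DMSO group was 0.203, with an exact 95% interval of 0.116 to 0.339 for counting error, and for knockout against control it was 1.20 (0.783 to 1.85). The sign of the knockout value turned to -0.28 without knockout library 2 and to -0.23 without control library 3.

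Csn1s2b, the other alpha-s2-like gene, was at the limit of detection, with 20 counts in all 12 libraries. It had 9, 0 and 0 counts in the knockout libraries and none in the 3 control libraries, none in the 3 WM-3835 libraries and 6, 0 and 5 counts in the DMSO libraries. A library with 0 counts allows up to 3 counts, which is 0.0671 to 0.112 CPM in the libraries where Csn1s2b was at 0. No change was detectable at this depth, and the gene was not tested.

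Csn3, the micelle-stabilising kappa-casein gene, had 25, 16 and 32 counts in the knockout libraries, against 41, 28 and 0 in the control libraries. It had 34, 10 and 3 counts in the WM-3835 libraries, against 10, 7 and 3 in the DMSO libraries. The groups overlapped in both pairs, and control library 3 had no Csn3 count although it held the most Csn1s1 counts of any library. Csn3 did not pass in the knockout (log2 change 0.51 ± 1.27, edgeR adjusted p = 0.841) or with WM-3835 (1.12 ± 1.32, adjusted p = 0.654). Without control library 3 the knockout value was -0.06. The ratio of library-scaled counts was 2.55 in the WM-3835 group to the DMSO group, with an exact 95% interval of 1.48 to 4.54 for counting error. This interval pools the libraries and leaves out their spread, and 34 of the 47 WM-3835 counts came from library 1, so it gives no direction. Over 16 alternatives the WM-3835 log2 change ran from 0.09 to 1.55. In knockout to control the ratio was 1.36 (0.964 to 1.92). The SEs of Csn3 were about as large as the Csn2 change in the knockout, so a change of that size was not detectable here.

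**Figure D2:**
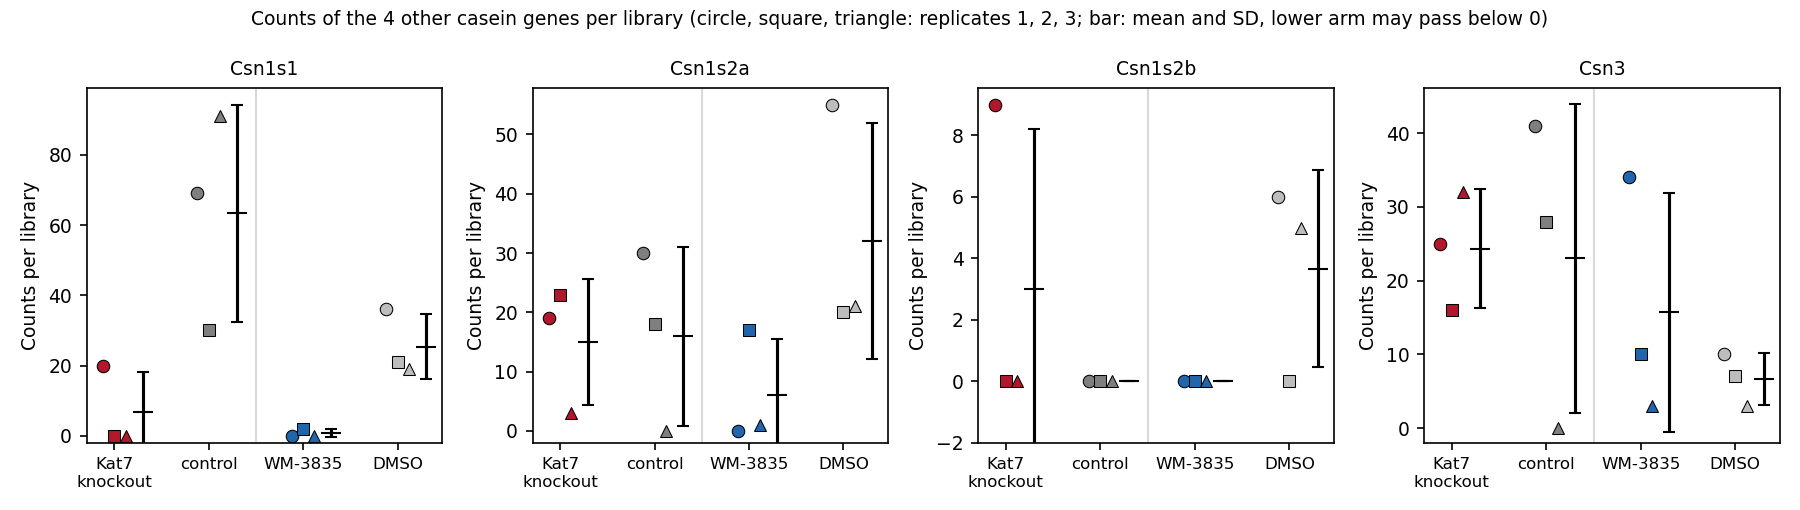
Counts per library of Csn1s1, Csn1s2a, Csn1s2b and Csn3 in the Kat7 knockout, control, WM-3835 and DMSO groups; symbols are the 3 replicates and bars the mean and SD. Csn1s1 has 20, 0 and 0 counts in knockout libraries below 30 to 91 in control libraries, while Csn1s2a and Csn3 overlap between knockout and control libraries.

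The order of levels per length placed Csn2 far above the rest in every group, by more than the spread between replicates. Mean levels in knockout cultures were 0.534 CPM/kb for Csn1s2a, 0.499 for Csn3, 0.130 for Csn1s1 and 0.108 for Csn1s2b. In control cultures they were 1.16 CPM/kb for Csn1s1, 0.420 for Csn1s2a, 0.348 for Csn3 and 0 for Csn1s2b. In WM-3835 cultures Csn3 stood at 0.235 CPM/kb, Csn1s2a at 0.173, Csn1s1 at 0.0123 and Csn1s2b at 0, and in DMSO cultures Csn1s2a stood at 0.833, Csn1s1 at 0.453, Csn3 at 0.110 and Csn1s2b at 0.101. Csn1s1 led the 4 rarer genes in control cultures and was next to last in knockout and WM-3835 cultures. Most neighbours in these orders differed by less than the sum of their SDs, so their order is not resolved. Csn1s1 stood above Csn3 by more than this sum in DMSO cultures. Csn3 stood above Csn1s2b by more than this sum in control cultures, where Csn1s2b had an SD of 0. Both had 0 counts in control library 3, so that order is not resolved either. Csn2 made up 97.8% to 99.6% of the casein counts of each library.

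Proportions among the caseins were compared within libraries, as the log2 ratio of each gene to Csn2 per length with 0.5 counts added. Where a gene had 0 counts, the added count sets the ratio, which then follows the Csn2 count. The Csn3 to Csn2 ratio was higher by 3.15 in knockout than in control libraries and by 3.11 in WM-3835 than in DMSO libraries, with no overlap in either pair (two-sided exact permutation p = 0.1 each, the smallest possible). For the knockout this value leaned on control library 3, whose Csn3 count was 0. The Csn1s1 to Csn2 ratio was lower by 2.49 in WM-3835 than in DMSO libraries, again without overlap (exact permutation p = 0.1), but 2 of the 3 WM-3835 libraries had 0 counts and the difference was -1.02 with 2 counts added. Its difference of -3.43 between knockout and control libraries had overlapping groups (exact permutation p = 0.2). The Csn1s2a to Csn2 ratio differed by 2.48 between knockout and control (exact permutation p = 0.3) and by -1.25 between WM-3835 and DMSO (exact permutation p = 0.5), the last being -0.29 with 2 counts added. In a design that cannot reach a p under 0.1, none of the 8 ratios compared is past a threshold of 0.05.

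**Figure D3:**
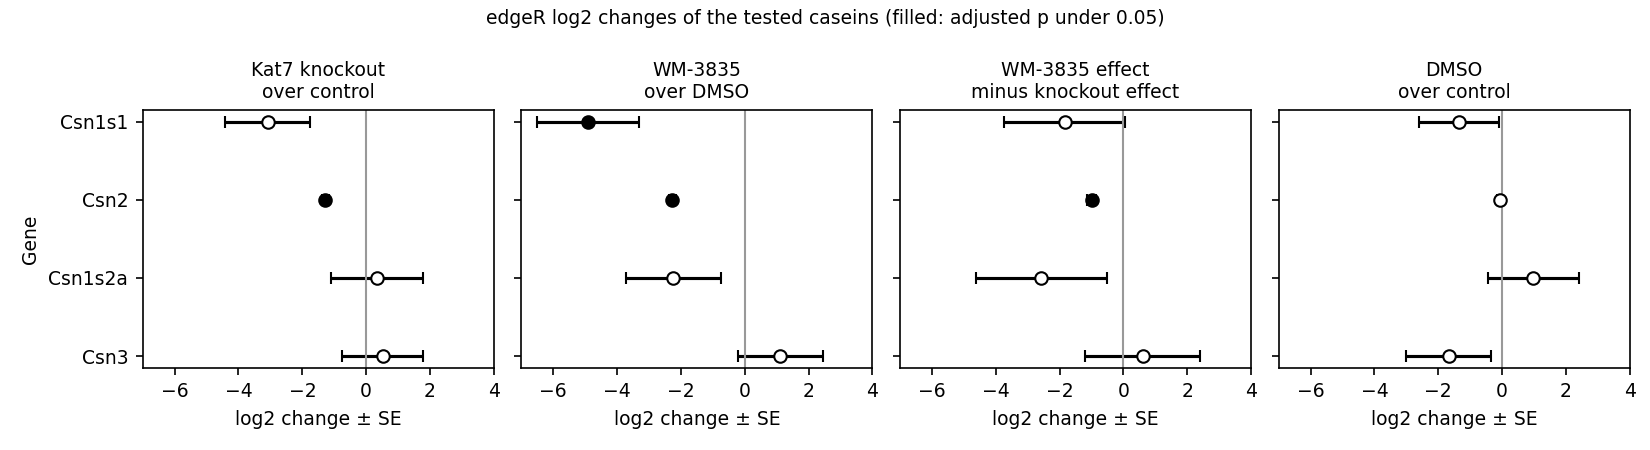
edgeR log2 changes with SE of the 4 tested caseins in Kat7 knockout over control, WM-3835 over DMSO, the WM-3835 effect minus the knockout effect, and DMSO over control; filled points passed an adjusted p under 0.05. Csn2 has the narrowest errors, at -1.28, -2.27, -1.0 and -0.07, and the rarer caseins have SEs above 1.2.

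The neighbours of the cluster had few counts. Within 500 kb on either side of the caseins lie 20 other genes with a symbol, of which 4 had no count in any library and 3 had enough counts to be tested. Sult1e1, an oestrogen sulfotransferase gene 115.6 kb from the Csn2 start, had 10, 13 and 17 counts in the knockout libraries, against 54, 90 and 152 in the control libraries. Its log2 change was -2.52 ± 0.71 (edgeR adjusted p = 0.0215), a call lost in 8 of 18 alternatives. Among these were the fits without knockout library 1 (0.0726), knockout library 2 (0.0533) or control library 3 (0.0869). The largest adjusted p was 0.355, with Xist as a covariate. Without the 2 knockout libraries that hold Xist the log2 change was -2.11. It did not pass between WM-3835 and DMSO libraries (-1.26 ± 0.69, adjusted p = 0.235). Sult1d1, another sulfotransferase gene, had no counts in the 3 knockout libraries and 32, 18 and 0 in the control libraries, and Amtn, an enamel protein gene, had 49, 29 and 0 against 42, 13 and 78. Neither Sult1d1 nor Amtn passed in either comparison. No neighbour had counts near those of Csn2.

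**Figure D4:**
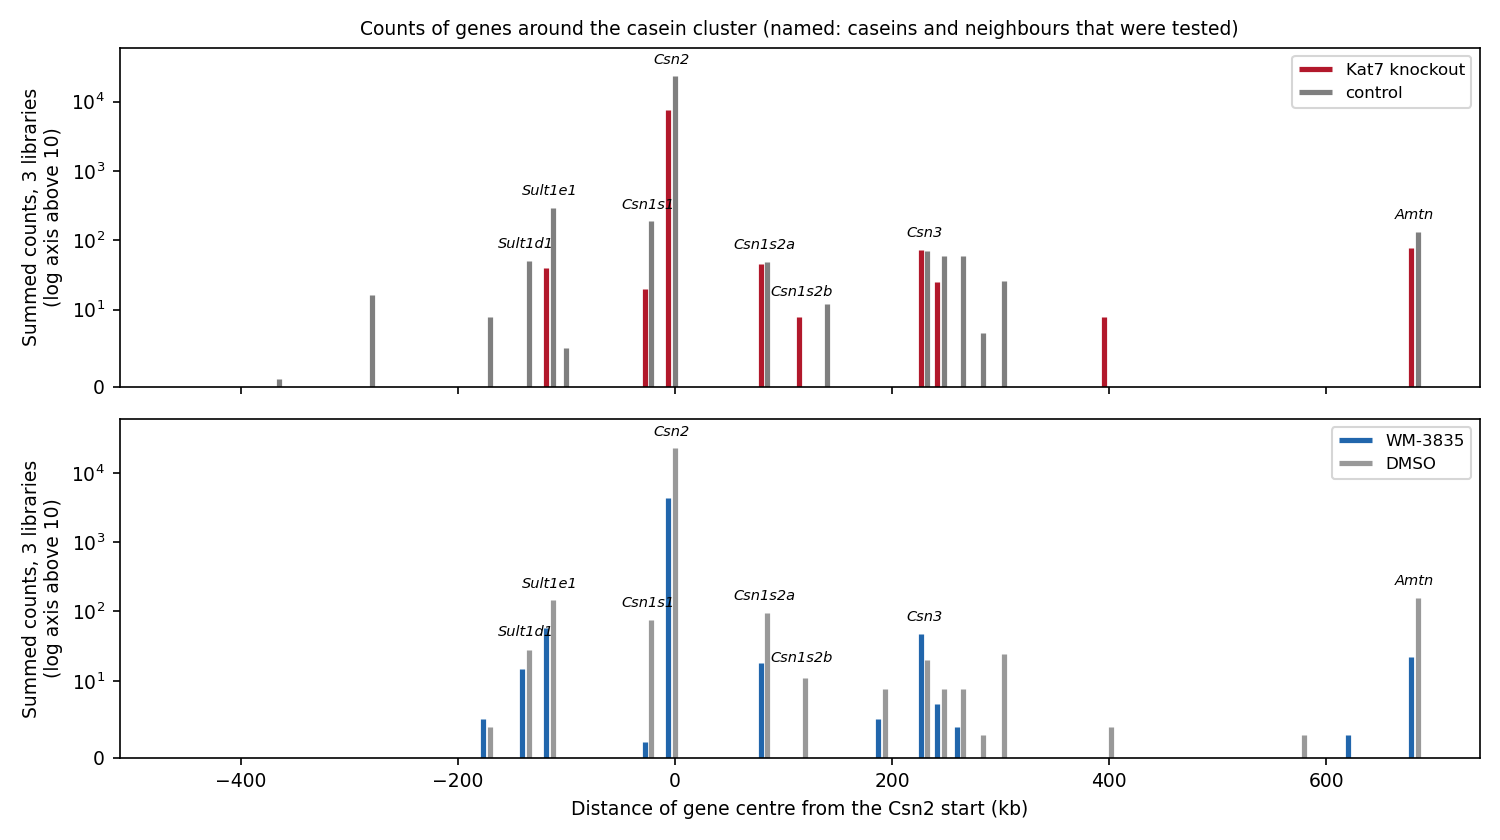
Summed counts of the 3 libraries of each group for the caseins and the 20 other genes within 500 kb of them, by distance of the gene centre from the Csn2 start in kb; the upper plot has Kat7 knockout and control, the lower WM-3835 and DMSO, and the vertical axis is logarithmic above 10. Csn2 is the tallest bar in each group, with 7658 counts in knockout and 23618 in control libraries, and 4371 in WM-3835 and 22839 in DMSO libraries.

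Other milk genes moved in both directions. Of 19 genes of whey proteins and of the milk fat globule, 17 were tested. In knockout against control cultures 3 were higher and 2 lower, where 6.34% of all tested genes were higher and 8.04% lower. The median log2 change was -0.34, beside a median of -0.01 over all tested genes, and the lower count ran from 1 to 3 over the alternatives. The 2 lower genes were Pthlh (log2 change -1.60 ± 0.20, edgeR adjusted p = 2.76e-05) and Plin2 (-1.03 ± 0.23, adjusted p = 0.00605). In WM-3835 against DMSO cultures 7 were higher, Plin2 among them, and 2 lower with a median of 0.82, where 9.55% of all tested genes were higher and 9.36% lower. In DMSO against control cultures 8 were lower and 1 higher, where 13.2% of all tested genes were lower and 11.6% higher. Mfge8, which encodes the fat globule protein lactadherin, had 97.7, 104 and 105 CPM in the knockout libraries, against 67.2, 82.2 and 55.1 CPM in the control libraries. It rose in the knockout (log2 change 0.58 ± 0.11, edgeR adjusted p = 0.00115) and with WM-3835 (0.84 ± 0.11, adjusted p = 1.25e-05). Xdh, the xanthine oxidoreductase of the fat globule membrane, had 174, 166 and 178 CPM in the WM-3835 libraries, against 41.9, 37.4 and 44.0 CPM in the DMSO libraries, and rose by 2.07 ± 0.11 on the log2 scale (edgeR adjusted p = 7.74e-11). Control cultures averaged 88.2 CPM, and Xdh was lower in DMSO than in control cultures (-1.10 ± 0.10, edgeR adjusted p = 1.29e-07). Lalba, the whey protein alpha-lactalbumin, had 13 counts in control library 1 and none in any other library. Wap, the whey acidic protein, had 0, 0 and 34 counts in the knockout libraries and 49, 13 and 0 in the control libraries.

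The prolactin pathway that drives caseins in the mammary gland was measured too. The hormone gene Prl had no counts in the knockout libraries and 2, 0 and 0 in the control libraries, and it had 0, 1 and 0 counts in the WM-3835 libraries and 0, 18 and 1 in the DMSO libraries. The receptor gene Prlr did not pass in either comparison (log2 change 0.29 ± 0.29 in the knockout and -0.50 ± 0.29 with WM-3835, edgeR adjusted p = 0.567 and 0.261). Jak2, the kinase on that receptor, was higher, at 313, 323 and 306 CPM in the knockout libraries against 197, 237 and 180 CPM in the control libraries. Its log2 change was 0.62 ± 0.08 in the knockout and 0.94 ± 0.08 with WM-3835 (edgeR adjusted p = 4.22e-05 and 9.79e-08). Stat5a, which encodes the main mammary STAT5, did not pass in the knockout (0.04 ± 0.09, adjusted p = 0.852) or with WM-3835 (-0.26 ± 0.09, adjusted p = 0.0532). Stat5b, the other STAT5 gene, did not pass in the knockout (0.18 ± 0.10, edgeR adjusted p = 0.241). It was higher with WM-3835 (0.32 ± 0.10, edgeR adjusted p = 0.0238).

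Nr3c1, the glucocorticoid receptor gene, had log2 changes of 0.46 ± 0.08 both in the knockout and with WM-3835 (edgeR adjusted p = 0.000658 and 0.000271). The knockout call was lost with Xist as a covariate (0.0814). Without the 2 knockout libraries that hold Xist the knockout log2 change was 0.41. Elf5, a transcription factor gene of milk-secreting cells, was higher by 1.52 ± 0.30 in WM-3835 than in DMSO cultures (edgeR adjusted p = 0.000996), at 7.54, 4.43 and 6.18 CPM in the WM-3835 libraries against 1.85, 2.32 and 2.20 CPM in the DMSO libraries. Control cultures averaged 6.9 ± 2.49 CPM, and Elf5 was lower in DMSO than in control cultures (-1.70 ± 0.30, edgeR adjusted p = 0.000236). Over 16 tested pathway genes, 2 were higher and 1 lower in the knockout with a median log2 change of 0.08, where 6.34% of all tested genes were higher and 8.04% lower. With WM-3835 6 were higher and 1 lower with a median of 0.22, where 9.55% of all tested genes were higher and 9.36% lower. The knockout counts rested on single libraries: 4 were higher without control library 1, and none was lower without control library 3 or knockout library 2, while 2 were lower with WM-3835 without WM-3835 library 2 and under each of the other scalings. The gene lower in the knockout was Socs3, a suppressor of cytokine signalling (log2 change -0.57 ± 0.14, edgeR adjusted p = 0.0177). Its adjusted p was 0.0717 without control library 3, 0.0694 without knockout library 2 and 0.294 with Xist as a covariate. Without the 2 knockout libraries that hold Xist its log2 change was -0.44. The gene lower with WM-3835 was Nfib, a nuclear factor I gene (-0.46 ± 0.08, edgeR adjusted p = 0.000322).

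Some other antigens commonly used as AIRE-dependent were lower beside Csn2, while most of those tested did not pass. Of 14 such genes, 10 were tested, and 3 were lower and none higher in each main comparison, where 8.04% of all tested genes were lower in the knockout and 9.36% with WM-3835. Their log2 changes ran from -2.99 to 0.14 in the knockout, with a median of -1.41, and from -2.79 to 0.06 with WM-3835, with a median of -1.34. At an unadjusted p under 0.05 edgeR had 5 lower in the knockout and 4 lower with WM-3835, and none higher. The share of all tested genes at that unadjusted threshold was not counted, so these counts have no background. The 3 lower in the knockout were S100a8, Muc6 and Pcp4, and the same 3 were lower with WM-3835. The knockout count ran from 0 to 3 over the alternatives. With WM-3835 the count was 1 without DMSO library 3 or WM-3835 library 3, and 6 when only the 6 libraries compared were fitted. Calls over all genes were 2503, 2532 and 6090 in these fits in turn, against 3530 in the main fit. S100a8, a calcium-binding protein of neutrophils, had 1.74, 1.66 and 1.84 CPM in the knockout libraries, against 4.71, 5.55 and 5.87 CPM in the control libraries. It had 1.01, 1.28 and 2.15 CPM in the WM-3835 libraries, against 5.67, 7.93 and 5.83 CPM in the DMSO libraries. Its log2 change was -1.62 ± 0.34 in the knockout and -2.14 ± 0.35 with WM-3835 (edgeR adjusted p = 0.00315 and 0.000142), and the knockout call was lost with Xist as a covariate (0.135). Without the 2 knockout libraries that hold Xist the knockout log2 change was -1.53. These antigens were far rarer than Csn2: the 13 of them in the table together reached 15.4 to 22.2 CPM in knockout libraries and 28.3 to 41.3 CPM in control libraries.

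Caseins belong to the secretory calcium-binding phosphoproteins, whose other members build enamel, dentin and bone. Of 14 such genes 5 were tested, and edgeR called none in the knockout or with WM-3835. At an unadjusted p under 0.05 edgeR had 0 in the knockout and 2 lower with WM-3835, again without a count over all tested genes. With limma-voom 1 was lower in the knockout, as was 1 by edgeR without control library 2. With WM-3835, 1 was lower by DESeq2, 1 by edgeR without WM-3835 library 2 or 3, and 2 by limma-voom with quality weights and when only the 6 libraries compared were fitted. The secretory kinase gene Fam20c, whose product phosphorylates caseins, did not pass in the knockout (log2 change 0.12 ± 0.12, edgeR adjusted p = 0.547) or with WM-3835 (-0.11 ± 0.12, adjusted p = 0.615).

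Markers of cell types were read beside the caseins. Of 17 markers of mature medullary TECs, the cells that express Aire, 7 were lower and none higher in the knockout with a median log2 change of -0.24, beside 8.04% of all tested genes lower. With WM-3835 7 were lower and 3 higher with a median of -0.07, beside 9.36% lower and 9.55% higher over all tested genes. The knockout count was 2 without control library 2, 2 without knockout library 1, 1 without knockout library 2 and 2 without knockout library 3, and it was 0 with Xist as a covariate. Knockout calls over all genes moved too, from 2684 to 2847 without control library 2. They were 1998, 1842 and 2045 without knockout libraries 1, 2 and 3 in turn, and 552 with the Xist covariate. The summed level of the mature markers was 10600 to 11300 CPM in knockout libraries and 12100 to 13900 CPM in control libraries. It was 11200 to 13000 CPM in WM-3835 libraries and 13800 to 15200 CPM in DMSO libraries. Most of it came from Cd74, H2-Aa, H2-Ab1 and H2-Eb1, with Cd74 alone averaging 4290 CPM in knockout and 5030 CPM in control cultures. Of 9 markers of immature medullary TECs, 8 were lower in the knockout with a median log2 change of -0.91, beside 8.04% of all tested genes. With WM-3835 4 were lower with a median of -0.37, beside 9.36%. In DMSO against control cultures 6 were lower, beside 13.2%. Their sum was 5360 to 5610 CPM in knockout libraries and 6220 to 6730 CPM in control libraries. It was 3270 to 3630 CPM in WM-3835 libraries and 3700 to 4370 CPM in DMSO libraries. Most of it came from the keratin gene Krt5. The cortical TEC list summed to 13200 to 15700 CPM in knockout libraries and 10700 to 15500 CPM in control libraries, and to 8620 to 11000 CPM in WM-3835 libraries and 15700 to 17800 CPM in DMSO libraries. Of its 10 markers, 2 were higher and none lower in the knockout, beside 6.34% of all tested genes higher, and 4 were higher without control library 2. With WM-3835 8 were lower and 1 higher. The lower count was 5 without DMSO library 1, and 4 without DMSO library 2, DMSO library 3, WM-3835 library 1 or WM-3835 library 3. In these fits WM-3835 calls over all genes fell from 3530 to between 2458 and 2607. The fibroblast list summed to 92.6 to 119 CPM in knockout libraries and 157 to 234 CPM in control libraries, and to 79.6 to 95.9 CPM in WM-3835 libraries and 91.0 to 111 CPM in DMSO libraries. Of its 10 markers, 4 were lower in the knockout (1 to 6 over the alternatives), and 4 were lower and 1 higher with WM-3835, and none of the 10 was at 0 in all libraries of a group. Mammary luminal markers, several of which TECs express too, summed to 2240 to 2480 CPM in knockout libraries and 2190 to 2680 CPM in control libraries, and to 1910 to 2180 CPM in WM-3835 libraries and 2150 to 2640 CPM in DMSO libraries, most of it from the keratin gene Krt18. The part of cell composition in the casein changes was not tested.

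Genes whose profile was most like that of Csn2 were listed over the 12 libraries, among 13041 tested genes with a mean log2 CPM of at least 1. By Pearson r of log2 CPM the 10 closest were Cd200 (0.981), Pglyrp2 (0.980), Bmyc (0.977), Trp63 (0.976), Pcp4l1 (0.974), Ankrd13a (0.968), H2-M2 (0.968), H2-DMb2 (0.966), Ang4 (0.963) and Slc22a7 (0.963). The libraries share their 4 groups, so the list describes genes with the same order of group levels, and it carries no test. Cd200, an immunoregulatory surface glycoprotein, averaged 23.2 ± 2.13 CPM in knockout cultures and 44.4 ± 5.25 CPM in control cultures, and 15.1 ± 2.44 CPM in WM-3835 cultures and 38.9 ± 1.03 CPM in DMSO cultures. Trp63, the p63 transcription factor of basal epithelium, averaged 179 ± 15.6 CPM in knockout cultures and 275 ± 11.9 CPM in control cultures, and 123 ± 6.16 CPM in WM-3835 cultures and 244 ± 18.3 CPM in DMSO cultures. Pcp4l1 averaged 16.7 ± 6.94 CPM in knockout cultures and 33.7 ± 2.91 CPM in control cultures, and 7.59 ± 1.33 CPM in WM-3835 cultures and 32.2 ± 0.395 CPM in DMSO cultures. These share the order of Csn2, with the lowest mean in WM-3835 cultures, the next in knockout cultures, and higher, similar means in DMSO and control cultures. Counts of Ang4 and H2-DMb2 are uncertain, since each has near-identical relatives and the rule for shared reads is not stated. Over the same libraries r with Csn2 was 0.882 for Csn1s1, 0.621 for Aire, 0.470 for Csn1s2a and -0.218 for Csn3.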

How the data were processed

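RNA of sorted TECs was read as 75-base pairs from a TruSeq RNA v2 library, which does not mark strand, per the labels' protocols. The authors deposited raw counts per gene. Per the submitters' processing notes, the tool was featureCounts and the build mm10. No source used here gives the aligner, the annotation or the rule for shared reads. Each table lists 27179 genes with Entrez ID, symbol and length, and the 1312 without a symbol (0.657% to 0.743% of counts) were left out.

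edgeR 4.0.16 in R 4.3.3 was run on these counts: TMM scaling, filterByExpr (18670 genes left), robust quasi-likelihood fit of 4 group means on 12 libraries, two-sided tests, Benjamini-Hochberg adjustment over all tested genes, threshold 0.05. A change is a log2 fold change with its SE, and CPM are TMM-scaled. "Passed" means an adjusted p under 0.05. Per-length levels divide by the deposited gene length. Ratios were compared by exact permutation of libraries. Exact 95% intervals and the limit of 3 counts cover counting error only.

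The members and lists were chosen with earlier results of these data known. The genes named are the caseins, Kat7, Aire, Xist, tested neighbours and the 10 genes most like Csn2. Up to 4 called members of a list with the smallest adjusted p are named too, and some that these rules take are not listed. Epcam, Foxn1, Cd3e, Lalba, Wap, Prl, Prlr, Stat5a, Stat5b and Fam20c were added for their roles after values were seen. Separate animals are not named in the labels beyond "biological replicates", and p-values measure the spread between these samples. On simulated counts for WM-3835 against DMSO, 45 of 50 genes lowered by 2 on the log2 scale and 34 of 50 lowered by 1 were called, among 18261 genes. For knockout against control these were 41 and 33 of 50. Only genes with a mean over 1 CPM were altered, so these rates do not cover Csn1s1, Csn1s2a and Csn3, which lie below that. Same-numbered replicates did not deviate together.

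Alternatives were RLE, upper-quartile and no scaling, DESeq2 1.42.0, limma-voom (limma 3.58.1) with and without quality weights, other filters, fewer libraries, a replicate block and Xist as a covariate.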

Additional observations from a re-analysis of the deposited data

Results flagged for a closer look

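The values below are differences between the inhibitor effect and the knockout effect on the log2 scale, tested in the edgeR fit over all genes with an adjusted p under 0.05 for the difference itself. For Csn2 the difference was -1.0 (SE 0.15, adjusted p = 0.00018), and for Aire it was -0.87 (SE 0.11, adjusted p = 2.67e-05). For Kat7, removed in the knockout and left in place by the inhibitor, it was 6.93 (adjusted p = 6.83e-17). For Xdh it was 1.90 (adjusted p = 8.75e-08). Among the prolactin pathway genes named as lower, it was 0.79 for Socs3 (adjusted p = 0.0228) and -0.36 for Nfib (adjusted p = 0.0488).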

How the results depend on the processing

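Csn2 was lower and passed under all 18 alternatives for the knockout (log2 change -1.35 to -1.18), all 17 for WM-3835 (-2.40 to -2.16) and all 23 for the difference between the effects (-1.14 to -0.90). An added comparison, chosen after seeing the data, set Csn2 against Aire counts: -1.03 for the knockout and -1.17 for WM-3835, where an exact permutation test cannot go below p = 0.1. DMSO against control did not pass for Csn2 under any of 17 alternatives (-0.15 to 0.03), and on leaving out a library it ranged from -0.14 to 0.03, the last without control library 1. The number of caseins called was 2 for the knockout under DESeq2 and 1 to 2 on leaving out a library. For WM-3835 it was 1 under limma-voom, 1 under the filter of CPM over 1 in 3 libraries, which left Csn1s1 untested, 1 with the replicate block, and 1 to 2 on leaving out a library. Csn1s1 had an adjusted p of 0.0599 under limma-voom and 0.0514 with the replicate block. Same-numbered replicates correlated at 0.002 to 0.009 between knockout and control and at 0.003 to 0.058 between WM-3835 and DMSO, so the numbers were not taken as pairs, and the replicate block changed no call for Csn2.

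Signs turned among rare caseins that did not pass. The difference between the effects became -0.73 for Csn3 under limma-voom, -0.17 with quality weights and -0.47 with the replicate block, and on leaving out a library it ranged from -0.44 (without WM-3835 library 1) to 1.17, with -0.08 without control library 1. For Csn1s1 it became 3.61 with the Xist covariate, 0.08 with quality weights, 4.02 without both knockout libraries that hold Xist, and -4.49 to 3.98 on leaving out a library, the last without knockout library 1. Csn1s2a became -1.40 with the Xist covariate and -1.85 without both those libraries in the knockout, -0.28 (without knockout library 2) to 1.12 on leaving out a library, with -0.23 without control library 3, and -1.12 for DMSO against control with the Xist covariate. Csn3 in the knockout ranged from -0.06 (without control library 3) to 1.19 on leaving out a library. The Csn1s2b to Csn2 ratio, -0.01 for WM-3835 against DMSO, became 1.10 with 2 counts added, and ranged from -0.98 to 0.48 on leaving out a library. Socs3 with WM-3835, 0.22 and not past the threshold, ranged from -0.01 (without WM-3835 library 1) to 0.37 on leaving out a library. The other ratios kept their sign with 2 counts added, and that of Csn1s1 was then -1.02 with WM-3835, against -2.49. The cause was not tested. Under upper-quartile scaling 59.9% of the genes called with WM-3835 were lower, against 49.5% under TMM, and no scaling moved the median of all genes by over 0.1. Depth limits Csn1s1, Csn1s2a, Csn1s2b and Csn3, which had 20 to 288 counts in all libraries.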
